A study of Mus musculus with 8 samples.

Results

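*Saa3*, *Lcn2*, *Hp*, *Steap4* and *Nos2* are 5 genes of the acute-phase response and of epithelial host defence, and they are described here in colonic intestinal epithelial cells (IECs) of mice that lacked *Efhd2* in the epithelium. *Efhd2* encodes a calcium-binding adaptor protein. Mice of the genotype Efhd2 f/f Vil1 cre/+ (Efhd2-deficient) were set against Efhd2 f/f mice (control), on day 0 without dextran sulfate sodium (DSS) and on day 7 after DSS in the drinking water, with 2 RNA-seq libraries for each of the 4 groups. DSS injures the colonic epithelium and gives acute colitis. All mice carried the loxP-flanked *Efhd2* alleles, and in the Efhd2-deficient mice Cre recombinase driven from the villin promoter deleted exon 2 in epithelial cells along the whole intestine. The study's methods give young adult mice of both sexes for its animal experiments and 2 alternative DSS concentrations for its colitis experiments. Its figure legends give the lower concentration for colitis experiments on these genotypes. Neither a sex nor a concentration is tied to these libraries, and the methods do not say whether a library came from a single mouse or a pool. IECs were shaken off the opened colon with EDTA and were not sorted before RNA extraction, so that other cells could be present.

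The 5 genes were selected on their measured values in the same genotype comparison. Each of the 2 deposited tables, 1 for each day, holds only genes that the authors had already picked for a difference between genotypes on that day, and the 5 genes were picked from them with those differences known. All 5 are in the day 7 table, which lists 128 genes. The day 0 table lists 309 genes, among them *Saa3* and *Nos2*, while *Lcn2*, *Hp* and *Steap4* are not in it, so their levels without DSS were not analysed here. Over both tables, the 5 genes are 5 of 428 listed genes. Because the choice used this contrast, the genotype differences of the 5 genes are given as a description with no test.

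The acute-phase response is the rapid rise of a set of secreted proteins when interleukin-1, interleukin-6, interleukin-22 or bacterial products act on liver and barrier epithelia. *Saa3* encodes a serum amyloid A made largely outside the liver, *Lcn2* the siderophore-binding protein lipocalin-2 that keeps iron from bacteria, and *Hp* haptoglobin, which binds free haemoglobin. *Steap4* encodes a metalloreductase that reduces iron and copper at cell membranes, and *Nos2* the inducible nitric oxide synthase, whose product is toxic to microbes. In the inflamed colon these genes are known to be expressed by epithelial cells, and most of them also by neutrophils or macrophages.

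On the GRCm38 build, *Saa3* (ENSMUSG00000040026) has 4 exons at chr7:46711998-46715700 on the minus strand. *Lcn2* (ENSMUSG00000026822) has 6 exons at chr2:32384633-32388252 on the minus strand, and *Hp* (ENSMUSG00000031722) has 5 exons at chr8:109575128-109579172 on the same strand. *Steap4* (ENSMUSG00000012428) has 5 exons at chr5:7960457-7982213, and *Nos2* (ENSMUSG00000020826) has 27 exons at chr11:78920787-78960254, both on the plus strand. Exon numbers are those of the first-numbered transcript of each gene in GENCODE M21. No other annotated gene overlaps any of the 5. Counting of *Saa3* is the least certain, since 108 of the 2556 stretches of 50 bases in its protein-coding transcripts (4.23%) also occur in transcripts of other genes, 9 of them in *Saa1*, *Saa2* or *Saa4*. For *Lcn2*, *Hp*, *Steap4* and *Nos2* that number was 0.

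The promoters of the members that the RefSeq table holds (GRCm38.p6) are shown because these genes are listed together on day 7 and their promoter letters were not used to choose them. RefSeq promoters matched 3 of the 5 genes, and those of *Hp* and *Nos2* are named only. Each of 32851 promoters, from 250 bases before to 50 bases after the gene start, was searched on both strands for 5 short patterns. They were TTCNNNGAA (STAT type), TTNNGNAAT (C/EBP type) and TATAAA (the core promoter box), where N is any base, and a pattern each of the NF-kB type and of the interferon-stimulated element type, given by name only. Matches are in capitals in the stretches below, which are read 5′ to 3′ on the strand of the gene and end where the annotated GENCODE gene begins.
Saa3, chr7:46715701-46715926, minus strand: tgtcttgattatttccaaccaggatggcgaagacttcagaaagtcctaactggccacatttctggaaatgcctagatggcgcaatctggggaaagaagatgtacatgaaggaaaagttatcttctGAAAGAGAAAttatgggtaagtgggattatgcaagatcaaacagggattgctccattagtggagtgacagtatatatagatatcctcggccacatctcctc
Steap4, chr5:7960222-7960456, plus strand: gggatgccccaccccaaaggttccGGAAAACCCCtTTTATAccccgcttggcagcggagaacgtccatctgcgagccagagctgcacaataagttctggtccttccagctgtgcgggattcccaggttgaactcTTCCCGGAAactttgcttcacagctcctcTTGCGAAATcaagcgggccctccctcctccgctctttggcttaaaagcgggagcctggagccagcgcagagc

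The *Steap4* promoter held 4 matches. They were the NF-kB type on the opposite strand from -226 to -217, TATAAA on the opposite strand from -215 to -210, the STAT type, which reads the same on both strands, from -116 to -108, and the C/EBP type from -87 to -79, counted in bases from the gene start. The *Saa3* promoter held 1 match, of the interferon-stimulated element type, from -125 to -116. *Lcn2* had no match in its whole window, and its letters are not shown. That window lies inside the annotated GENCODE gene, unlike the stretches shown for *Saa3* and *Steap4*. Bases before the outermost annotated start of *Lcn2* were therefore not searched. Of all promoters searched, 5.6% held the NF-kB type, 8.3% the STAT type, 11.5% the C/EBP type, 3.4% the interferon-stimulated element type and 13.6% TATAAA. No 2 of the 3 members shared a match, and a match or its absence describes letters in this window and not the binding of a factor.

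**Figure D1:**
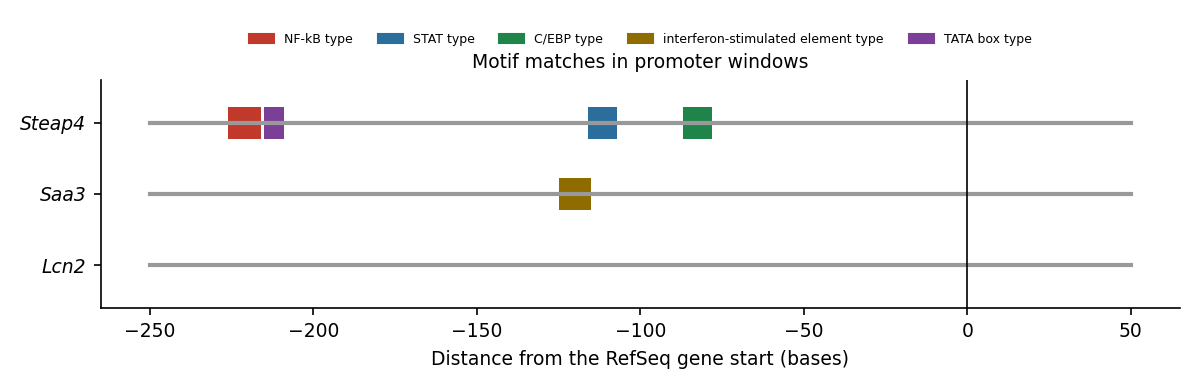
Pattern matches in the promoters of *Saa3*, *Lcn2* and *Steap4* along the distance from the gene start in bases, each row being 1 promoter and each coloured block 1 match. *Steap4* holds 4 matches, *Saa3* holds 1 and *Lcn2* none, the *Lcn2* window lying inside its annotated GENCODE gene.

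On day 7 after DSS, normalized counts of all 5 genes were higher in both Efhd2-deficient libraries than in both control libraries. The values are read counts per gene after the authors' scaling between libraries, and the libraries are named by the numbers in the table, 65 and 71 for Efhd2-deficient and 67 and 68 for control IECs. Among all 128 listed genes, 116 (90.6%) had both Efhd2-deficient libraries above both controls, and 11 (8.59%) had both below. Nothing is read from the 5 of 5, since the table was built from this contrast. In bulk RNA such as this, fewer cells of a type and less RNA per cell cannot be told apart.

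Of the secreted acute-phase proteins, *Saa3* stood at 4499 and 4242 normalized counts in the Efhd2-deficient libraries 65 and 71, and at 311 and 858 in the control libraries 67 and 68. The Efhd2-deficient pair was close together, while the controls differed from each other by 1.46 on the log2 scale. The means were 4371 ± 181 and 584 ± 387 (SD, n = 2 each), which is 7.48-fold higher, and the difference of the mean log2(value + 1) was 3.08. Between the nearest libraries, the lower Efhd2-deficient and the higher control, the ratio was 4.95. The log2 difference was 2.35 without control library 67 and 3.81 without control library 68.

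*Hp* stood at 2282 and 2838 in libraries 65 and 71 and at 389 and 695 in libraries 67 and 68. Each pair lay closer together than the genotypes did, with within-pair log2 ratios of 0.31 and 0.84. The means were 2560 ± 393 and 542 ± 216 (SD, n = 2 each), a 4.73-fold higher level and a log2 difference of 2.29 that turned to -0.13 when each library was scaled so that its listed genes had the same sum. It was the smallest difference of the 5 genes, and the nearest libraries differed by a ratio of 3.28.

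*Lcn2* stood at 2356 and 7498 in libraries 65 and 71 and at 241 and 501 in libraries 67 and 68. Both genotypes varied for this gene, and library 71 was above library 65 by 1.67 on the log2 scale. The means of 4927 ± 3636 and 371 ± 184 (SD, n = 2 each) gave a 13.3-fold higher level and a log2 difference of 3.59. The SD of the Efhd2-deficient pair was large beside its mean, and the ratio between the nearest libraries was 4.70. The log2 difference was 2.76 without library 71 and 4.43 without library 65.

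*Steap4*, the membrane metalloreductase, was the most even of the 5 genes. It stood at 1756 and 1863 in libraries 65 and 71 and at 289 and 217 in libraries 67 and 68. The means were 1809 ± 75.8 and 253 ± 50.4 (SD, n = 2 each), a 7.15-fold higher level with a log2 difference of 2.85. The nearest libraries differed by a ratio of 6.08.

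*Nos2* stood at 6100 and 1724 in libraries 65 and 71 and at 80.1 and 271 in libraries 67 and 68. Here library 65 was the higher of the Efhd2-deficient pair, with a log2 ratio of library 71 to library 65 of -1.82, the opposite order to *Lcn2*. The means of 3912 ± 3094 and 176 ± 135 (SD, n = 2 each) gave a 22.3-fold higher level and a log2 difference of 4.45. It was the largest difference of the 5 genes with the widest spread, and the nearest libraries differed by a ratio of 6.36. The log2 difference was 3.54 without library 65 and 5.36 without library 71, and 3.57 and 5.32 without the control libraries 67 and 68.

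**Figure D2:**
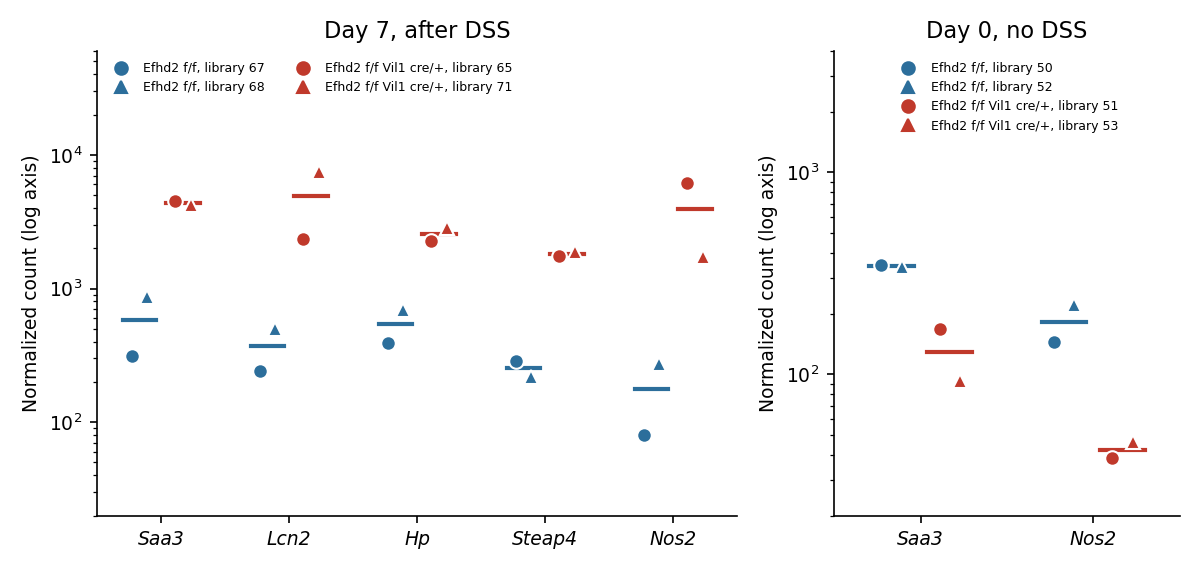
Normalized counts on log axes for the 5 genes in each library on day 7 and for *Saa3* and *Nos2* in each library on day 0, with circles and triangles for the lower- and higher-numbered library, lines for the means of 2, red for Efhd2-deficient and blue for control. On day 7 the Efhd2-deficient points lie above the control points for all 5 genes (at equal sums the *Hp* log2 difference is -0.13), and on day 0 they lie below for both.

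Within the day 7 table, the genotype differences of the 5 genes were spread over the list. Counted from the largest log2 difference, *Nos2* ranked 11 of 128, *Lcn2* 25, *Saa3* 34, *Steap4* 42 and *Hp* 77. The median difference of all 128 listed genes was 2.53, so that *Nos2* lay above this median by 1.91, *Lcn2* by 1.06, *Saa3* by 0.54 and *Steap4* by 0.31, and *Hp* differed from it by -0.25. Scaling the libraries to equal sums moved the median of the listed genes by -2.41. Under that scaling the log2 differences were 2.03 for *Nos2*, 1.17 for *Lcn2*, 0.66 for *Saa3*, 0.43 for *Steap4* and -0.13 for *Hp*. The sum over the listed genes was 411504 and 614168 in the Efhd2-deficient libraries and 71972 and 121940 in the controls, and since the list holds mostly genes higher in Efhd2-deficient IECs it is not a measure of depth. The depth of the libraries is not known from these tables.

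**Figure D3:**
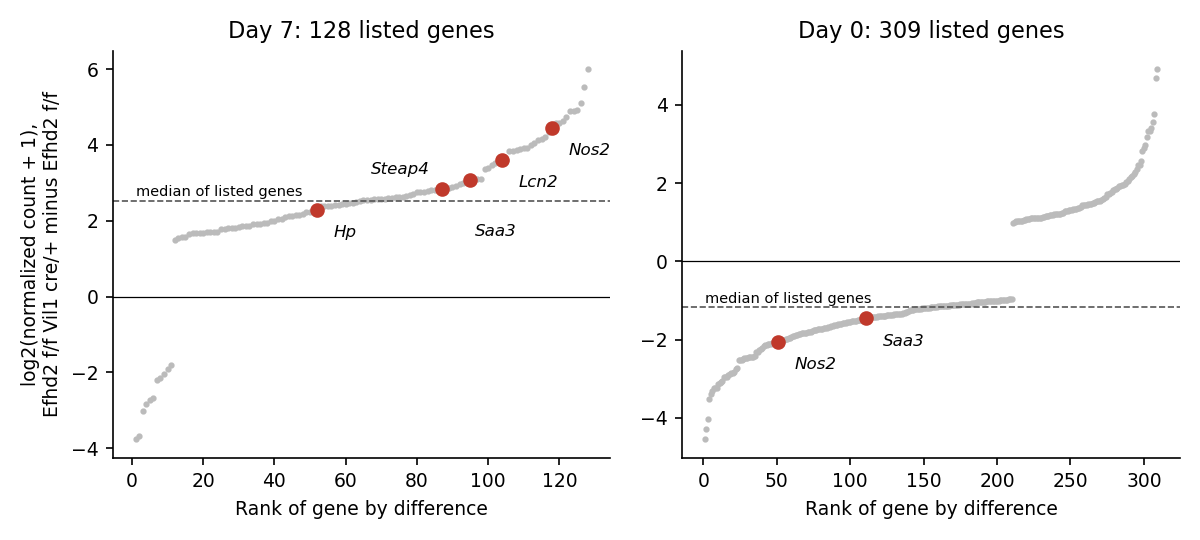
Differences of mean log2(value + 1), Efhd2-deficient minus control, for every gene listed on day 7 and on day 0, ordered from the lowest, with the described genes in red and the listed median as a dashed line. On day 7 the 5 genes lie between 2.29 and 4.45 around a median of 2.53 (*Hp* at -0.13 with equal sums), and on day 0 *Saa3* at -1.46 and *Nos2* at -2.05 lie below a median of -1.17.

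Per kilobase of gene length, as the day 7 table gives that length, Efhd2-deficient IECs held 1878 ± 1386 normalized counts of *Lcn2*, 1677 ± 69.6 of *Saa3*, 1594 ± 245 of *Hp*, 887 ± 701 of *Nos2* and 573 ± 24.0 of *Steap4* (mean ± SD, n = 2 each). The ranges of *Lcn2* and *Saa3*, of *Saa3* and *Hp*, and of *Nos2* and *Steap4* overlapped, so these neighbours in the order did not differ beyond their spread. In control IECs the order by the same quantity was *Hp* at 337 ± 135, *Saa3* at 224 ± 148, *Lcn2* at 141 ± 70.1, *Steap4* at 80.2 ± 16.0 and *Nos2* at 39.8 ± 30.6. *Hp* was thus the highest of the 5 in control IECs, and *Nos2* the lowest, with overlapping libraries between *Hp* and *Saa3* and between *Saa3* and *Lcn2*. The levels depended on the gene model. With the length of the first-numbered GENCODE transcript in place of the gene length, a choice made after the data were seen, *Saa3* came to 7875 and *Lcn2* to 5385 normalized counts per kilobase in Efhd2-deficient IECs, ahead of *Hp* at 1903, *Nos2* at 933 and *Steap4* at 573. In control IECs *Saa3* then came first at 1052, with *Lcn2* at 405 and *Hp* at 403.

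The 5 genes did not share 1 pattern between the libraries of a genotype. The genes were chosen on the difference between genotypes, but the authors' adjusted p-values, by which genes were listed, depend on the spread between libraries. From library 65 to library 71, both Efhd2-deficient, the log2 ratio was 1.67 for *Lcn2*, 0.31 for *Hp*, 0.09 for *Steap4*, -0.08 for *Saa3* and -1.82 for *Nos2*. The median ratio over the 128 listed genes was 0.32 with a range from -6.71 to 7.13, and it was above 0 for 83 of them. *Nos2* ranked 123 of 128 in this ratio and *Lcn2* 19. From control library 67 to library 68, the ratio was 1.75 for *Nos2*, 1.46 for *Saa3*, 1.05 for *Lcn2*, 0.84 for *Hp* and -0.41 for *Steap4*, with a listed median of 0.88 and 99 of 128 genes above 0.

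Markers of neutrophils differed between the libraries too. Of 16 neutrophil markers the day 7 table lists 11, all called higher in Efhd2-deficient IECs by limma on log2(value + 1) at a Benjamini-Hochberg adjusted p under 0.05 and a log2 difference above 1. That call took in 99 of the 128 listed genes as higher (77.3%) and 10 as lower (7.81%), and with equal sums over the listed genes 5 as higher and 7 as lower. The counts of day 7 calls in marker and pathway lists therefore rest on the deposited scaling. It took in 0 of the 128 genes when library 65, 71, 67 or 68 was left out, with 35 to 81 higher and 1 to 7 lower at an unadjusted limma p under 0.05. All 11 were also higher in library 71 than in library 65, with log2 ratios from 0.50 for *Fpr2* to 6.40 for *Ngp* and a median of 1.62, beside 1.67 for *Lcn2*. The summed neutrophil markers came to 19469 and 59992 in libraries 65 and 71 and to 4030 and 6724 in libraries 67 and 68. *Ngp*, a granule protein of maturing neutrophils, stood at 90.6 and 7712 in libraries 65 and 71 and at 12.1 and 12.2 in the controls. None of the 11 was at 0 in any library, but the lowest of them was near 0 in control libraries 67 and 68, at 0.88 and 0.01. The markers *Elane*, *Mpo*, *Ly6g*, *Csf3r* and *Cxcr2* are not in the table. The part of neutrophil RNA in the levels of the 5 genes was not tested.

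The summed monocyte and macrophage markers were nearly even within the Efhd2-deficient pair, but *Fcer1g* and *Fcgr3* were not. The 4 of 16 that are listed (*Cd14*, *Clec4e*, *Fcer1g* and *Fcgr3*) were called higher. Their sum was 16882 and 17514 in the Efhd2-deficient libraries against 3404 and 6097 in the controls. Most of that sum was *Cd14*, at 11964 and 13046 in the Efhd2-deficient libraries, a gene that is also on the acute-phase list. Within the Efhd2-deficient pair, in the library order used above, the log2 ratio was 0.12 for *Cd14* and 0.03 for *Clec4e*. It was -0.68 for *Fcer1g* and -0.32 for *Fcgr3*. The 4 of 6 listed erythroid markers were also called higher, with sums of 4139 and 3992 against 562 and 1344. Of 8 stromal markers 2 are listed, of which *Fn1* was called higher and *Vim* was not, at a log2 difference of 1.67; their sum was 3012 and 4664 against 667 and 1461. None of 13 T and NK cell markers, of 11 B and plasma cell markers or of 13 epithelial markers is listed on day 7. Immunoglobulin genes outside the B and plasma cell list are listed, however, and were called higher, beside 77.3% of all listed genes. The log2 differences were 4.58 for *Ighv1-34*, 4.15 for *Ighg2c* and 2.76 for *Ighv1-18*. Those of *Igkv12-46* and *Igkv4-61* were both 3.09, with 2.75 for *Igkv4-74* and 2.49 for *Igkv10-96*. Since the tables hold selected genes only, the epithelial identity of the cells could not be checked with them. Whether RNA of these other cells added to the 5 genes was not tested.

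**Figure D4:**
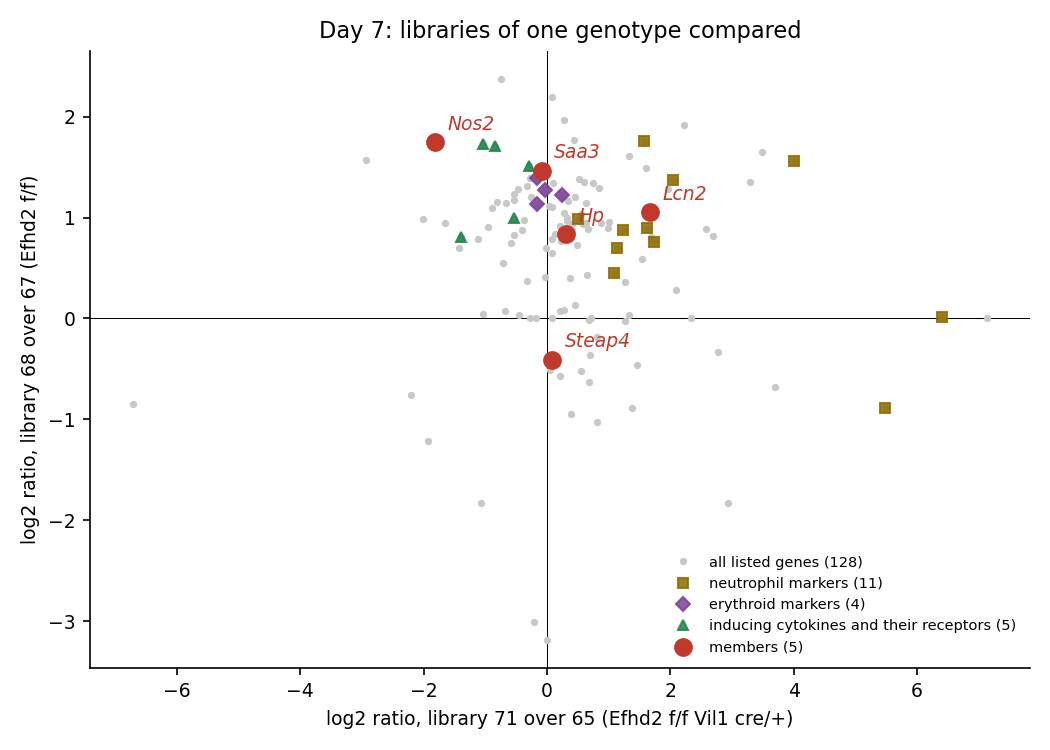
Log2 ratios between the libraries of a genotype on day 7, with library 71 over library 65 (Efhd2-deficient) on one axis and library 68 over library 67 (control) on the other, 1 grey point for each listed gene, red for the 5 genes, squares for neutrophil markers, diamonds for erythroid markers and triangles for cytokine genes. In the Efhd2-deficient ratio *Lcn2* lies at 1.67, within the range of the neutrophil markers from 0.50 to 6.40 (median 1.62), while *Nos2* lies at -1.82.

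For each of the 5 genes, the listed genes with the nearest profile were found among 86 candidates whose mean reached 100 normalized counts. Likeness was the root mean square distance over the 4 day 7 libraries of log2(value + 1) after each gene's mean was subtracted. *Hp* had the nearest neighbours, *Bst1* at 0.05, *Wfdc17* at 0.06 and the formyl peptide receptor gene *Fpr2* at 0.09. *Saa3* was nearest to the alpha globin gene *Hba-a2* at 0.17, the granulocyte growth factor gene *Csf3* at 0.21 and *Tarm1* at 0.23. The neighbours of *Lcn2* were *Wfdc21* at 0.41 and the metalloproteinase genes *Mmp19* and *Mmp8*, both at 0.43. Those of *Steap4* were *Tifa*, *Wfdc17* and *S100a9*, at 0.48, 0.48 and 0.49. *Nos2* had the least like neighbours, *Clca4b* at 0.59, *Csf3* at 0.73 and *Inhba* at 0.81. Among the members the nearest pair was *Saa3* and *Hp* at 0.47, and the farthest *Hp* and *Nos2* at 1.36. Distances over 4 libraries in 2 groups are given as a description.

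Other genes of the same pathways came from lists drawn up with earlier results of these data known. Of 32 acute-phase genes the day 7 table lists 5, namely *Saa3*, *Lcn2*, *Hp*, *Cd14* and *Lrg1*, the first 3 of them members. The 2 that are no members were both called higher, beside 77.3% of all listed genes, with log2 differences of 1.93 for *Cd14*, a co-receptor for bacterial lipopolysaccharide, and 2.43 for *Lrg1*, a secreted glycoprotein of the acute phase. *Lrg1* stood at 902 and 2167 in libraries 65 and 71 and at 229 and 294 in the controls, so that library 71 was the higher one as for *Lcn2*. The median over the 5 was 2.43, beside 2.53 over all listed genes.

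Of 43 host-defence genes 13 are listed on day 7, among them the members *Lcn2*, *Nos2* and *Steap4*. Of the other 10, 9 were called higher, beside 77.3% of all listed genes, and *Fut2*, a fucosyltransferase of the epithelial surface, was not, at a log2 difference of 1.68. These 10 had a median log2 difference of 3.30. The antibacterial lectin genes *Reg3b* and *Reg3g* had log2 differences of 3.99 and 4.21, and *Reg3b* stood at 170461 and 274783 in the Efhd2-deficient libraries against 13675 and 13549 in the controls. The calprotectin subunit genes *S100a8* and *S100a9* had log2 differences of 2.61 and 2.58, and both are neutrophil markers as well. *Slpi*, a protease inhibitor, had a log2 difference of 2.56 and *Socs3*, a feedback inhibitor of cytokine signalling, of 2.13.

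Of 29 genes that handle iron, copper or haem the day 7 table lists 6, *Lcn2*, *Hp*, *Steap4*, *Hmox1*, *Ltf* and *Alas2*. The 3 that are no members were called higher, beside 77.3% of all listed genes. *Hmox1*, the haem oxygenase that breaks down haem, stood at 1143 and 790 in libraries 65 and 71 and at 117 and 277 in the controls, a log2 difference of 2.39. *Ltf*, which encodes the iron-binding lactoferrin of neutrophil granules, stood at 102 and 1651 against 4.17 and 14.3, a log2 difference of 5.53. *Nos2* was the 1 listed gene of 19 that make or handle nitric oxide and reactive oxygen.

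Of 29 inducing cytokines, receptors and transcription factors 5 are listed on day 7. *Il17a*, *Il17f*, *Csf3* and *Il1a* were called higher, beside 77.3% of all listed genes, with log2 differences of 3.52, 3.38, 3.47 and 2.52. *Osm* was not called, at 1.71. *Il17a*, a cytokine that induces antimicrobial genes in epithelium, stood at 77.3 and 37.0 in libraries 65 and 71 and at 1.61 and 7.65 in the controls. All 5 cytokine genes were lower in library 71 than in library 65, with a median log2 ratio of -0.83. Of the 5 described genes, *Nos2* and, by 0.08, *Saa3* had that order, while *Lcn2*, *Hp* and *Steap4* did not.

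**Figure D5:**
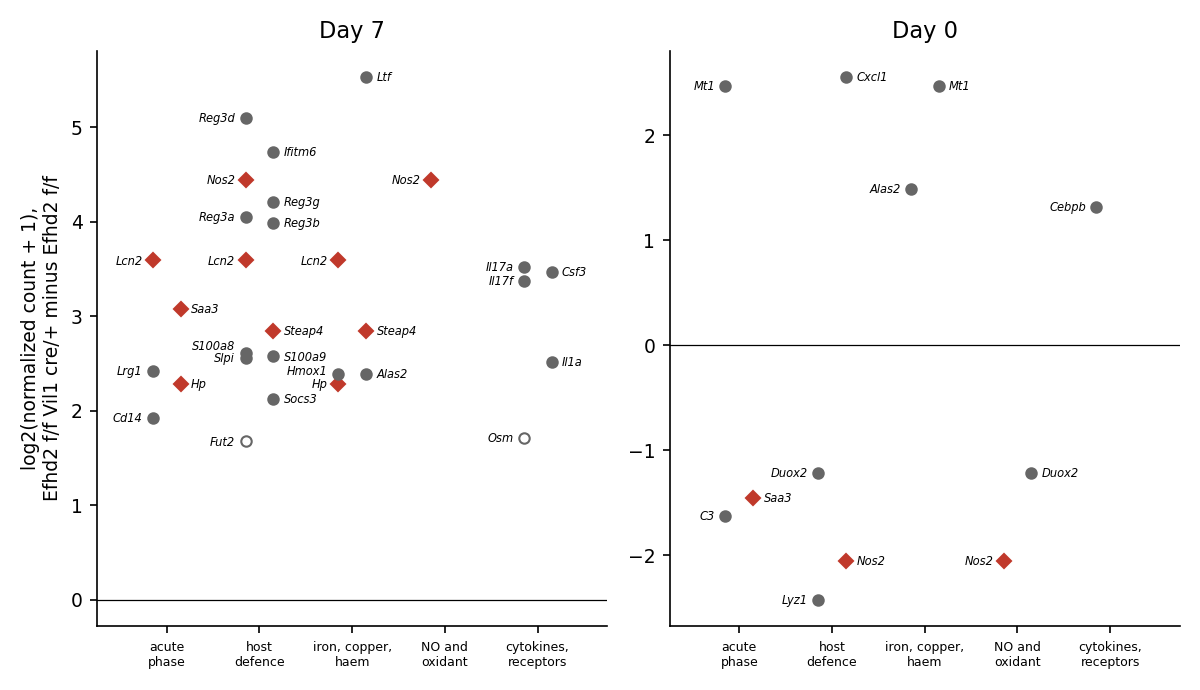
Differences of mean log2(value + 1), Efhd2-deficient minus control, on day 7 and on day 0 for the listed genes of the 5 pathway lists, with red diamonds for the 5 described genes, which carry no test, and grey circles for the others, filled where limma called the gene and open where it did not. On day 7 every listed gene of these lists lies above 0 as deposited, and on day 0 *Saa3* and *Nos2* lie below 0. Equal sums moved the day 7 median of all listed genes by -2.41 and put *Hp* at -0.13. The deposited differences of *Socs3* (2.13), *Cd14* (1.93), *Osm* (1.71) and *Fut2* (1.68) were smaller than that of *Hp* (2.29). Those of *Hmox1* and *Alas2* (both 2.39) were smaller than the size of that shift, and that of *Lrg1* (2.43) lay close to it. The place of all these genes above 0 therefore rests on the deposited scaling too. Equal-sum differences are not given gene by gene for genes that are no members.

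On day 0, without DSS, the 2 described genes in the table were lower in Efhd2-deficient IECs. *Saa3* stood at 167 and 92.4 normalized counts in the Efhd2-deficient libraries 51 and 53 and at 347 and 340 in the control libraries 50 and 52. The controls were nearly equal and both lay above both Efhd2-deficient libraries. The means were 130 ± 52.9 and 343 ± 5.04 (SD, n = 2 each), which is 2.65-fold lower, with a log2 difference of -1.46.

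*Nos2* stood at 38.5 and 46.4 in libraries 51 and 53 and at 145 and 220.0 in libraries 50 and 52. The pairs did not overlap. The means were 42.5 ± 5.59 and 183 ± 53.1 (SD, n = 2 each), 4.30-fold lower with a log2 difference of -2.05. Of the 309 genes listed on day 0, 207 (67%) had both Efhd2-deficient libraries below both controls and 99 (32.0%) had both above. The limma call took in 193 as lower (62.5%) and 94 as higher (30.4%), with a median log2 difference of -1.17. Without library 50, 51 or 53 limma called 0 genes, with 36 to 61 higher and 75 to 107 lower at an unadjusted p under 0.05, and without library 52 it called 159 lower and 78 higher. Equal sums over the listed genes gave 207 lower and 30 higher, moved that median by -0.61, and gave -2.07 for *Saa3* and -2.66 for *Nos2*.

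Around them on day 0, few genes of the same lists are in the table. Of the acute-phase genes 3 are listed, *Saa3* among them. Complement *C3* was called lower, at a log2 difference of -1.62, and the metallothionein gene *Mt1* higher, at 2.46. Of the host-defence genes 4 are listed. *Duox2*, the dual oxidase that makes hydrogen peroxide at the epithelial surface, was called lower at 2902 and 3193 against 6537 and 7655, a log2 difference of -1.22. *Lyz1* was called lower (-2.43) and the chemokine *Cxcl1* higher (2.55), both at low levels. *Duox2* and *Nos2* were the 2 listed genes of the nitric oxide and oxidant list. Of the iron list, *Mt1* and *Alas2* were called higher, the latter at 1.49, and of the cytokine list *Cebpb* at 1.32.

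Several markers of immune cells were also in the day 0 table. Of 13 T and NK cell markers 6 are listed, of which 5 were called lower, beside 62.5% of all listed genes. Their median log2 difference was -1.11, with sums of 1077 and 1277 in the Efhd2-deficient libraries against 3250 and 1991 in the controls. *Fcer1g* was the 1 listed monocyte and macrophage marker of 16, called lower at 28.4 and 61.5 against 191 and 149. The 2 listed B and plasma cell markers of 11, *Ighd* and *Ighg2b*, were called lower, with sums of 15.2 and 17.7 against 141 and 72.3. Outside that marker list, the immunoglobulin gene *Igkv8-24* was called higher at a log2 difference of 2.89 and *Ighv8-12* lower at -3.52. No neutrophil marker is listed on day 0, the stromal marker *Dcn* was called lower, and of the epithelial markers *Chga*, of enteroendocrine cells, was listed and called lower at -1.17. The part of these cells in the day 0 levels of *Saa3* and *Nos2* was not tested.

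Among 150 candidates on day 0, the profile nearest to *Nos2* was that of the targeted gene *Efhd2* at a distance of 0.21, followed by *Gal3st2c* at 0.29 and *Tat* at 0.32. All candidates were listed for a genotype difference, and *Efhd2* is the deleted gene. Nearness over 2 libraries per genotype therefore largely repeats that difference, -2.05 for *Nos2* and -2.09 for *Efhd2*. The distances are given as a description only. *Efhd2* stood at 556 and 713 in the Efhd2-deficient libraries and at 2663 and 2686 in the controls, 4.22-fold lower on day 0. It is not in the day 7 table, so the targeted gene was not among those the authors picked for a genotype difference on day 7. Its level in the day 7 libraries is not known from these data, and the deletion was checked on day 0 only. *Saa3* was nearest to *Sectm1a* at 0.19, *Klra5* at 0.25 and *Itga2b* at 0.26. *Saa3* and *Nos2* themselves lay 0.54 apart.

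*Saa3* and *Nos2* are therefore listed on both days with differences of opposite sign, -1.46 and 3.08 for *Saa3* and -2.05 and 4.45 for *Nos2*. The tables of the days were normalized separately and hold different libraries, so that levels were not compared between day 0 and day 7 within a genotype.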

How the data were processed

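RNA-seq of colonic IECs was analysed from 2 deposited tables, 1 for each day, with 2 libraries in each of 4 groups. Per the submitters' processing notes, the tools were CASAVA 1.8, fastp, HISAT2 2.0.5, featureCounts 1.5.0-p3 and DESeq2 1.20.0, with the builds GRCm38 and mm10. The values are normalized read counts, a signal scaled by the authors before they were deposited, by a method not given in the sources used here. Low values lay near but not at whole multiples of a step, so whole reads were not recovered, the depth is unknown and no count model was used. The deposited tables also hold the authors' log2 fold changes, p-values and adjusted p-values, which were not used.

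Values under 1e-06 were set to 0 (25 on day 0 and 14 on day 7). Genotypes were compared within a day on log2(value + 1), which understates changes of low genes. limma 3.58.1 in R 4.3.3 was fitted over all listed genes of a day with Benjamini-Hochberg adjustment, and a gene was called at an adjusted p under 0.05 and an absolute log2 difference above 1. Because the tables hold genes picked for this contrast, calls are background and not evidence. An exact permutation test of 2 against 2 libraries cannot give a two-sided p below 0.333. Nothing says that replicate libraries came from separate mice, so the spread between them may be technical. Columns were matched to groups by name, and they carry library numbers that differ from the labelled replicate numbers. The fit was run on simulated data in which most genes did not differ. The deposited lists hold mostly genes that differ, so that run does not bear on the calls given here.

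The members and all lists were chosen with earlier results of these data known. Genes named by rule were the members, *Efhd2*, up to 8 listed genes with the highest mean of each pathway list, up to 5 of each marker list, and the 3 nearest profiles of each member. Genes named outside these rules include *Slpi*, genes listed on both days, immunoglobulin genes outside the marker lists and neutrophil markers that are not listed. The analysis used Python 3.11.15, and gene positions came from GENCODE M21.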

Additional observations from a re-analysis of the deposited data

Results flagged for a closer look

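*Nos2* and *Saa3* drew a closer look because their genotype differences had opposite signs on the 2 days, with every Efhd2-deficient library below every control on day 0 and above every control on day 7. The log2 difference on day 7 exceeded that on day 0 by 6.50 for *Nos2* and by 4.54 for *Saa3*. This order of signs was not particular to them, since 6 of the 9 genes listed on both days had it. The change between days was not tested, since the tables were normalized separately and list genes picked for these contrasts.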

How the results depend on the processing

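The genotype differences of the 5 genes kept their direction under pseudocounts of 0.1 and 10 and without any single library, and *Hp* changed sign under 1 setting. With equal sums over the listed genes, the day 7 log2 differences were 0.66 for *Saa3*, 1.17 for *Lcn2*, -0.13 for *Hp*, 0.43 for *Steap4* and 2.03 for *Nos2*, and on day 0 -2.07 for *Saa3* and -2.66 for *Nos2*. By construction that scaling divides by sums that hold mostly genes higher (day 7) in Efhd2-deficient IECs. Leaving out each library in turn gave ranges of 2.35 to 3.81 for *Saa3*, 2.76 to 4.43 for *Lcn2*, 1.87 to 2.71 for *Hp*, 2.64 to 3.05 for *Steap4* and 3.54 to 5.36 for *Nos2* on day 7, and of -1.88 to -1.03 for *Saa3* and -2.35 to -1.75 for *Nos2* on day 0. The number of listed genes called by limma on day 7 was 5 higher and 7 lower with equal sums, and 65 higher and 6 lower among 105 genes averaging 50 or more. Without any 1 library of day 7 it was 0 to 0 higher and 0 to 0 lower, with 35 to 81 higher and 1 to 7 lower at an unadjusted p under 0.05. On day 0 it was 30 higher and 207 lower with equal sums, and 77 higher and 120 lower among 207 genes averaging 50 or more, and 0 to 78 higher and 0 to 159 lower without 1 library, where 78 and 159 came without library 52 and the other 3 gave 0, with 36 to 61 higher and 75 to 107 lower at an unadjusted p under 0.05. No paired analysis was possible because column names hold library numbers unrelated to the labelled replicates. Depth, the authors' choice of genes and 2 libraries a group limit all of these values.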

Other observations

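Besides *Saa3* and *Nos2*, 7 genes were listed on both days, and they were picked out after their values were seen. *Spp1*, which encodes the secreted phosphoprotein osteopontin, had log2 differences of -2.85 on day 0 and 2.67 on day 7. The cholesterol transporter gene *Abca1* had -1.13 and 1.93, the Fc receptor chain gene *Fcer1g* -1.98 and 1.85, and 9130204K15Rik -1.74 and 2.57. *Nr0b2*, an orphan nuclear receptor gene, had the opposite order with 2.97 and -3.67. *Alas2*, the erythroid enzyme of haem synthesis, was higher on both days (1.49 and 2.39), and the alpha-defensin gene *Defa24* had -3.23 on day 0, where its libraries overlapped between genotypes, and -3.77 on day 7. Of the 9 genes listed on both days, 6 were lower on day 0 and higher on day 7. Of all listed genes, 67% had both Efhd2-deficient libraries below both controls on day 0. On day 7, 90.6% had both above, so each list is made up mostly of genes with that direction.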
